A study of Arabidopsis thaliana with 32 samples.

Results

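The 99 genes described here were those whose transcript level in Arabidopsis thaliana roots had the steepest upward slope over doses of polyethylene glycol (PEG) while their slopes over NaCl, sorbitol and ethylene glycol (EG) all lay below 0.1. A slope was the least-squares change of the expression value, in log2 units per 100 mM, over the doses of a solute with the control at 0 mM. It was taken in each of 2 series of arrays and averaged. Of 28285 genes on the array, 16554 had a gene name, 10004 of these had a mean log2 value of at least 3, and 6465 met the limit on the other 3 solutes. The 100 with the highest PEG slope were taken, and AT1G80450 was then left out by the terms of the rule. AT1G72540, which the rule also sets aside, was never among them, since its slopes over NaCl (0.70), sorbitol (0.55) and EG (0.35) all exceed the limit.

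The values that chose the genes are the 4 dose slopes. They are given as descriptions, without a test, and so is every contrast of a solute with the control.

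All plants were Columbia-0 wild type, grown on agar plates and then in hydroponic solution, and their roots were collected at 16 days of age. The control plants were moved to the same solution without an added solute, and the others to solution with NaCl at 25, 50, 75 or 100 mM, sorbitol at 50, 100 or 150 mM, PEG 8000 at 75, 100, 125 or 150 mM, or EG at 50, 100, 150 or 200 mM. Every exposure, that of the control included, lasted 15 min. Each of the 16 groups had 2 arrays, 1 in the series of sample titles numbered 17 to 32 (series 1) and 1 in that numbered 33 to 48 (series 2). The labels do not tie the 2 arrays of a group to separate cultures or plants, so the spread behind each p-value may be partly technical. Whole roots were profiled, so a change in the share of cells of a type and a change in RNA per cell cannot be told apart.

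Added solutes lower the water potential around a root, water leaves its cells, and turgor falls. NaCl and sorbitol are small molecules that pass through the cell wall but cross the plasma membrane slowly, EG crosses the membrane readily, and PEG of high molecular weight is a polymer that is largely kept out of the pores of the wall. Plant cells answer a loss of water within minutes through calcium influx, protein kinases and transcription factors, and later through abscisic acid.

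The deposited values were read as log2, and the array medians lay between 4.11 and 4.24. The first principal component, with 50.4% of the variance, separated the 2 series. The PEG 150 mM array of series 2 stood apart on the second component, at -36.6 against -16.1 for the PEG 125 mM array of the same series, and its values had the narrowest spread, with a standard deviation of 2.01 against 2.06 to 2.22 on the other arrays. Of 10 fixed root markers only EXPA7, an expansin of root hair cells, was named here, at 6.57 to 8.08. The means of SBPASE, a Calvin cycle enzyme of green tissue, and of the pollen genes VGD1 and AT5G45880 were 2.05, 1.73 and 1.93.

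The PEG slopes of the 99 genes ran from 0.18 to 0.60, with a median of 0.24. Only 19 exceeded 0.3. The median slope was -0.03 over NaCl, 0.006 over sorbitol and 0.007 over EG, and the lowest values were -0.31, -0.37 and -0.22. A slope above 0 was present in 34 of the genes for NaCl, 53 for sorbitol and 54 for EG. All 4 slopes of a gene share the same control arrays.

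**Figure D1:**
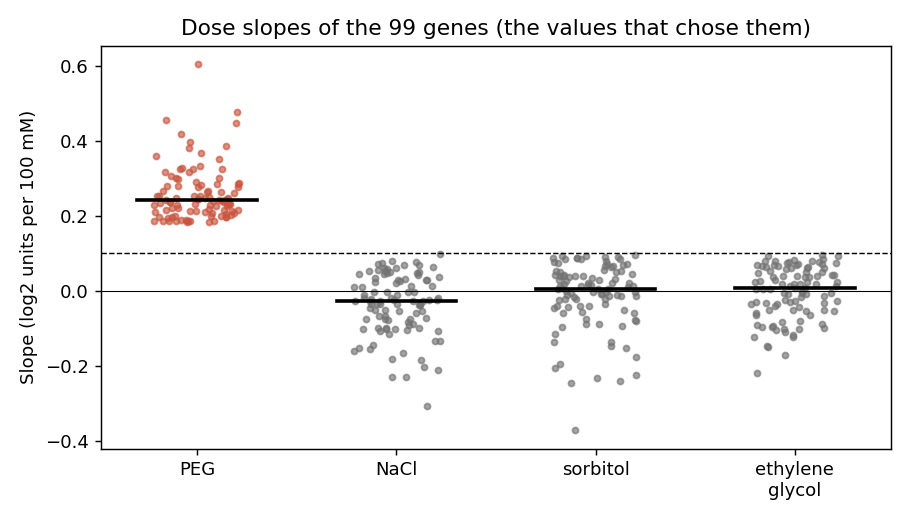
Dose slopes of the 99 genes over PEG, NaCl, sorbitol and EG, in log2 units per 100 mM, each point a gene as the mean of the 2 series, with a bar at the median and a dashed line at the limit of 0.1. The PEG slopes lie between 0.18 and 0.60 and all slopes over the other solutes lie below the limit, as the choice of the genes requires.

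The genes lay close to both edges of the rule. The last inside the threshold on PEG slope were AT1G52140, AT5G49850 and AT2G20590, and the first outside it were GSTU20, AT3G57830 and AT1G13820. All 6 had a PEG slope of 0.18. On the limit for the other solutes, AT4G32030 was inside with 0.098 over NaCl, RRP41L with 0.097 over sorbitol and UPP with 0.096 over EG. AT4G28420, with a PEG slope of 0.38, was outside with 0.1 over NaCl. AT3G24060 and AT4G37420 were outside by as little.

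Most named genes with a steep PEG slope exceeded the limit on another solute. Among named genes with a mean of at least 3, 850 had a PEG slope at or above the lowest of the 99, and 750 of them (88.2%) were kept out by the limit on the other solutes. Of these, 202 exceeded the limit with 1 other solute, 251 with 2 and 297 with 3. NaCl was over the limit in 619 of them, sorbitol in 582 and EG in 394. For comparison, 6465 of all 10004 named genes with such a mean met the limit, whatever their PEG slope. The slopes of a gene share the control arrays and are not independent of each other.

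The name "PEG only" refers to the slopes, and the levels are described beside it. The control arrays had a part in the choice and are shared by all these averages. No share over all genes was taken, so nothing is read from the counts. Averaged over its doses, PEG stood above the control in all 99 genes, by a median of 0.22 log2 units. The NaCl average also stood above the control in 74 of them, by a median of 0.06, and the sorbitol average in 76, by 0.10. The EG average did so in 59, by 0.03. At the highest doses, NaCl at 100 mM was above the control in 47 genes, sorbitol at 150 mM in 58 and EG at 200 mM in 59.

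Within the PEG series of doses the difference from the control was larger at the upper 2 doses, which a choice by slope favours. The counts describe the chosen genes, and no dose pattern is read from them. The group mean was above the control mean in 61 genes at 75 mM, with a median difference over the 99 of 0.09 log2 units. The corresponding counts were 72 at 100 mM (median 0.17), 97 at 125 mM (0.31) and 99 at 150 mM (0.35). The difference was largest at 75 mM in 6 genes, at 100 mM in 5, at 125 mM in 34 and at 150 mM in 54. It grew with every step in dose in 19. As a fold, PEG at 150 mM over the control ran from 1.11 to 1.75, with a median of 1.27.

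All 4 PEG arrays of both series stood above the control array of their own series in 20 of the 99 genes, against 6.9% of named genes and 6.4% of all genes. The rule used this contrast, and nothing is read from the count. In series 1 all 4 PEG arrays were above the control in 37 genes and none was in 5. In series 2 these counts were 50 and 2.

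AT4G00651, a locus without a symbol in the tables used here, had the steepest slope, at 0.60. It was 0.43 without the PEG 125 mM array of series 2 and 0.97 without the series 2 control. In series 1 it stood at 2.56 in the control and at 2.43, 2.90, 3.43 and 3.25 with PEG at 75, 100, 125 and 150 mM. In series 2 it stood at 3.40 in the control and at 3.31, 3.29, 4.90 and 3.90. Only the upper 2 doses were above the control in both series. The other solutes overlapped with PEG in series 1, where sorbitol reached 3.41, and in series 2, where EG reached 3.87. The values of AT4G32090, the next in rank, were 2.57, 2.54, 2.45, 2.97 and 3.08 in series 1 and 2.99, 3.27, 2.95, 3.58 and 4.09 in series 2, from the control through the 4 doses. Again the upper 2 doses were high in both series, and its fold at 150 mM, 1.75, was the largest of the 99. Sorbitol reached 3.55 in series 1, higher than any PEG array, and 4.04 in series 2, and its average over doses lay further above the control (0.52) than that of PEG (0.34).

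AT1G70420 and AT3G60470, both of families of proteins of unknown function, had slopes of 0.38 and 0.37. AT1G70420 stood at 5.01 in the control and at 5.55, 5.97, 5.45 and 5.74 over the PEG doses of series 1, and at 3.77 and then 4.60, 3.89, 4.16 and 4.40 in series 2. In series 1 every PEG array was above all arrays of NaCl (4.64 to 4.92), sorbitol (4.87 to 5.19) and EG (4.80 to 4.99). In series 2 the PEG arrays overlapped with those of NaCl, which ran from 3.77 to 4.39, and of sorbitol and EG. The mean of the 2 series was as high at 75 mM as at 150 mM, and the slope over the treated doses alone was -0.06. AT3G60470 stood at 5.51 and then 6.09, 6.06, 6.32 and 6.04 in series 1, and at 4.08 and then 4.30, 4.41, 4.33 and 4.61 in series 2. Its PEG arrays were above the control in both series, but EG reached 6.09 in the first and 4.61 in the second, so that the solutes overlapped.

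AT4G34300, AT5G38000 and AER had a positive slope in series 2 alone. AER, an alkenal reductase that acts on reactive carbonyls, stood in series 1 at 5.09 in the control and at 4.91, 4.88, 5.23 and 4.91 with PEG, and in series 2 at 4.74 and then 5.19, 5.39, 5.61 and 5.91. The series 2 values grew with each dose, whereas those of series 1 lay on both sides of the control. In series 2 the NaCl arrays of AER reached 5.61, so that they overlapped with PEG, whereas sorbitol (5.02 to 5.28) overlapped at the lowest dose only and EG (4.96 to 5.10) did not. AT5G38000, of the same family of zinc-binding dehydrogenases, stood at 3.74 and then 3.0, 3.25, 3.35 and 3.39 in series 1, all below the control. In series 2 it stood at 3.22 and then 3.22, 3.79, 4.36 and 4.78. Its slopes were -0.21 and 1.05. AT4G34300 was flat in series 1, at 3.65 and then 3.63, 3.69, 3.53 and 3.65. In series 2 it stood at 3.39 and then 4.47, 4.64, 4.61 and 4.81, above all arrays of NaCl (3.64 to 4.04), sorbitol (3.70 to 4.18) and EG (3.87 to 4.12).

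AT3G28674 and AT1G15830 had PEG arrays above the control in both series with steeper slopes in series 2. AT3G28674 stood at 4.11 and then 4.24, 4.38, 4.44 and 4.40 in series 1, and at 4.16 and then 4.64, 4.93, 4.88 and 5.21 in series 2. In series 1 NaCl reached 4.67 and sorbitol 4.62, higher than any PEG array. AT1G15830 stood at 3.42 and then 3.55, 3.53, 3.67 and 3.78 in series 1, and at 3.90 and then 4.16, 4.41, 4.41 and 4.79 in series 2. Sorbitol again exceeded PEG in series 1, at 3.83 to 4.04. AT4G07965 had slopes of 0.45 and 0.34 in the 2 series, from 3.23 and then 3.12, 3.28, 3.86 and 3.83 in the first and 4.25 and then 4.10, 4.26, 4.65 and 4.73 in the second. At 75 mM it was below the control in both series, and the upper 2 doses were the highest in both. AT1G71280 and AT4G03630 completed the 12 steepest, with slopes of 0.35 and 0.33. Of the 33 members that the naming rule gave, 28 had a slope that moved by over 1.5 times without 1 array or another, 25 of them without the series 1 control and 15 without that of series 2. Without the series 1 control AT1G71280 had a slope of 0.083. Without the series 2 control AT4G34300 had 0.18 and AT5G38000 0.94. The slopes of AER, AT1G15830, AT1G68400, AT3G28674 and AT4G25835 stayed within 1.5 times whichever control or PEG array was left out.

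**Figure D2:**
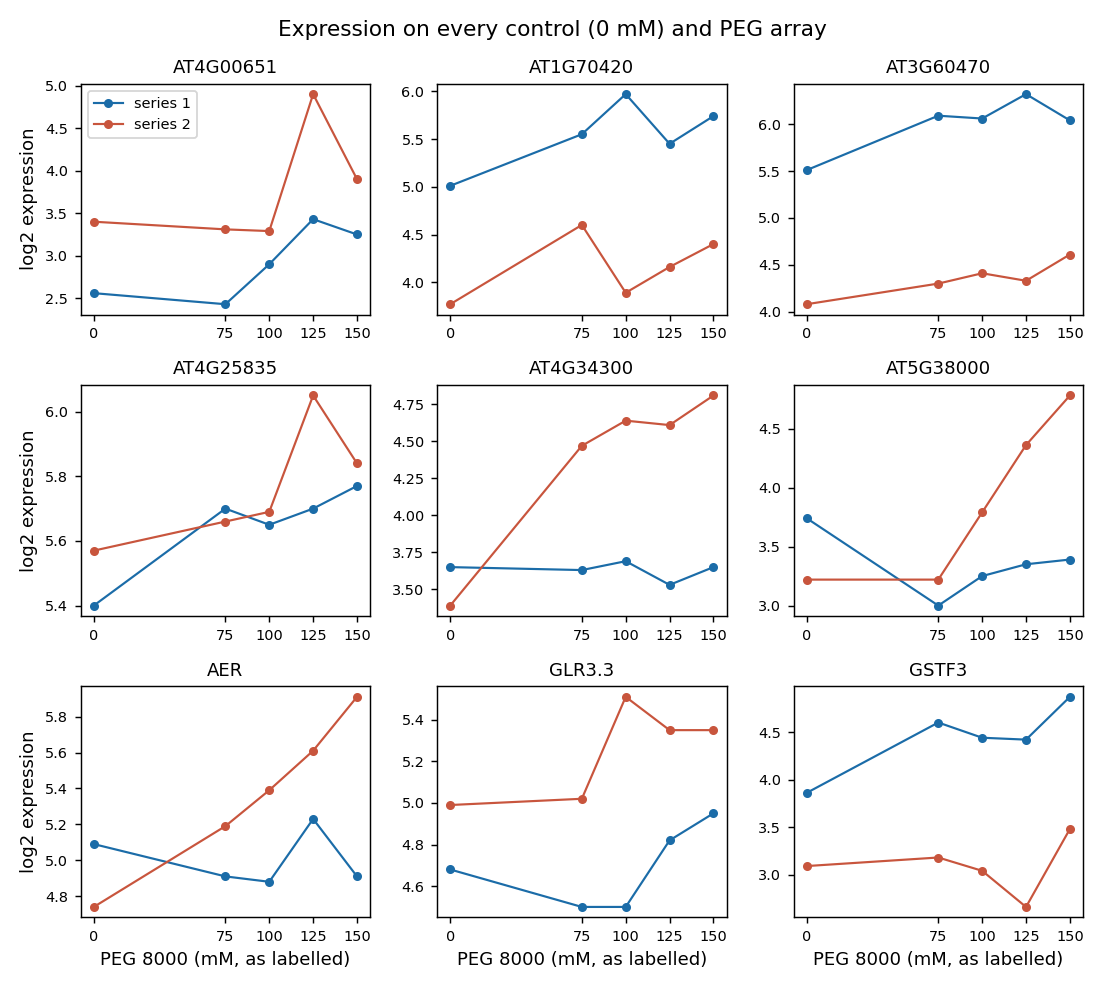
Log2 expression by PEG dose in mM, as labelled, for AT4G00651, AT1G70420, AT3G60470, AT4G25835, AT4G34300, AT5G38000, AER, GLR3.3 and GSTF3, each point an array, each series a line and the control at 0 mM, with an axis range of its own in each panel. AT1G70420 stands above its control at every dose in both series, whereas AT4G34300 and AER do so in series 2 alone.

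The genes with a steep slope in both series, ranked by the lower of the 2, were AT4G00651, AT4G07965, AT4G32090, AT3G60470, AT1G70420, AT5G07160, AT2G03560, AT1G68400, AT3G55650 and AT5G01070. AT1G68400, a leucine-rich repeat receptor kinase by family, had nearly equal slopes, 0.29 and 0.28, and a residual standard deviation of 0.13 against a median of 0.24 over the 99. It stood at 4.36 and then 4.37, 4.71, 4.81 and 4.69 in series 1 and at 4.24 and then 4.28, 4.61, 4.36 and 4.73 in series 2. Each PEG array was above the control of its series, at 75 mM only narrowly. AT5G01070 stood at 2.98 and then 2.93, 2.94, 3.34 and 3.33, and at 2.79 and then 3.27, 2.91, 3.25 and 3.33. It was high at the upper 2 doses in both series and, in series 2, at 75 mM too. AT3G55650 stood at 2.76 and then 4.09, 3.02, 3.24 and 3.37 in series 1, and at 3.37 and then 3.55, 3.64, 3.84 and 3.67 in series 2. Its control was the lowest value in both, and in series 1 the lowest dose was the highest. Over the treated doses alone its slope was -0.28.

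Family membership, from background knowledge and not from the tables used, was assigned to 30 of the 99 genes in 8 classes after their values were seen. The 4 protein kinase genes, AT4G39110, AT1G68400, AT1G17230 and AT3G61160, had PEG slopes of 0.23 to 0.32 and all had a positive slope in both series. The first 3 are receptor-like kinases and the last is a shaggy-like kinase. AT1G17230 had another probe set, at a mean of 2.55, whose PEG slope was -0.24.

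The largest class was of the cell wall, with 7 genes whose slopes ran from 0.19 to 0.25, 6 of them positive in both series. AT3G47380, AT1G55770 and AT4G02250 belong to the invertase and pectin methylesterase inhibitors, AT1G78400 to the polygalacturonases that cut pectin, and GH9B10 to the endoglucanase family. AT5G04885 and AT1G77790 are glycosyl hydrolases. GH9B10 stood at 3.34 and then 3.22, 3.55, 3.07 and 3.42 in series 1, and at 3.73 and then 3.75, 4.06, 3.57 and 4.61 in series 2. That last array was the highest of all, and the slope was 0.19 with it and -0.0014 without it. AT5G04885 stood at 4.40 and then 4.24, 4.25, 4.83 and 4.91, and at 5.16 and then 5.18, 5.35, 5.64 and 5.14. In each series at least 1 PEG array was below the control.

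Of the 4 genes of detoxification families, AER and AT5G38000 are described above. GSTF3, a glutathione S-transferase, stood at 3.86 and then 4.60, 4.44, 4.42 and 4.87 in series 1 and at 3.09 and then 3.18, 3.04, 2.66 and 3.48 in series 2. It was high at every PEG dose in the first and on both sides of the control in the second, with slopes of 0.57 and 0.05. CYP71B6, a cytochrome P450, stood at 6.08 and then 6.51, 6.65, 6.30 and 6.63, and at 4.33 and then 4.27, 4.51, 4.52 and 4.48. Its slope was 0.22.

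GLR3.3, a glutamate receptor-like channel that carries calcium and is known for long-distance wound signals, had a slope of 0.23. It stood at 4.68 and then 4.50, 4.50, 4.82 and 4.95 in series 1, and at 4.99 and then 5.02, 5.51, 5.35 and 5.35 in series 2. PEG overlapped with EG in both series, at 4.80 to 4.97 and at 5.01 to 5.53. The transporter genes AT2G40460 and AT2G38510 had slopes of 0.23 and 0.20, that of AT2G38510 being -0.02 in series 1.

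The 3 transcription factor genes had slopes of 0.20 to 0.24. SHI, a zinc-binding regulator known from gibberellin and auxin responses, had slopes of 0.21 and 0.22 in the 2 series. It stood at 3.67 and then 3.60, 3.71, 4.09 and 3.87, and at 3.62 and then 3.86, 4.04, 3.89 and 3.94. AT1G29160, of the Dof family, stood at 4.80 and then 4.46, 5.10, 4.86 and 5.27, and at 5.65 and then 6.16, 6.11, 6.50 and 5.64. Its PEG 150 mM array was high in series 1 and level with the control in series 2. AT1G70000, of the MYB-related family, stood at 6.03 and then 6.61, 6.53, 6.50 and 6.66, and at 6.10 and then 5.99, 6.00, 6.14 and 6.09. The PEG arrays were above the control in series 1 and on both sides of it in series 2.

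The remaining classes were the pentatricopeptide repeat family, whose proteins bind organelle RNA, with 5 genes at 0.19 to 0.25, and the actin and aspartyl protease families with 2 genes each. Among genes outside a class, ICL, isocitrate lyase of the glyoxylate cycle, stood at 2.97 and then 2.68, 3.01, 3.36 and 2.98, and at 3.17 and then 3.39, 3.24, 3.73 and 3.81, with a slope of 0.28. UPP, a uracil phosphoribosyltransferase, had a slope of 0.26. ZYP1b, a protein of the synaptonemal complex in meiosis, stood at 2.98 and then 3.31, 3.06, 3.40 and 2.84, and at 2.91 and then 2.54, 2.55, 3.14 and 3.66. Its slope of 0.22 was 0.02 without the PEG 150 mM array of series 2, and that of AT5G07160 changed from 0.30 to 0.12. Over the 99 genes the median without that array was 0.23, and 98 slopes were above 0.

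The genes of highest level included AT4G36430, a peroxidase by family, AT4G32030, AT1G52140, AT1G70000, AT4G25835, AT1G29160, AT1G62970 and AT1G32190. AT4G36430 stood at 6.91 and then 6.60, 6.66, 6.86 and 6.93 in series 1, and at 6.23 and then 6.44, 6.16, 6.74 and 7.0 in series 2, with slopes of 0.01 and 0.45. AT4G32030 stood at 6.55 and then 6.83, 6.79, 6.78 and 6.88, and at 6.08 and then 6.29, 6.26, 6.22 and 6.45. All of its PEG arrays were above the control, and its residual standard deviation of 0.10 was the smallest of the 99. AT4G25835, an AAA-type ATPase by family, stood at 5.40 and then 5.70, 5.65, 5.70 and 5.77, and at 5.57 and then 5.66, 5.69, 6.05 and 5.84. Its PEG arrays too were above the control in both series, and overlapped with NaCl, which ran from 5.25 to 5.80 and from 5.30 to 5.68.

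The 2 series were then set side by side. The median PEG slope was 0.24 in series 1, with a range of -0.37 to 0.58 and 84 genes above 0. It was 0.28 in series 2, with a range of -0.06 to 1.05 and 95 genes above 0. Both slopes were positive in 80 genes (80.8%), both exceeded 0.1 in 61 and both exceeded 0.2 in 22. Series 2 was the steeper in 53. Since the mean of the 2 slopes chose the genes, these counts are a description. A positive slope in both series was present in 8.66% of the 6465 genes that met the limits and in 31.1% of named genes.

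**Figure D3:**
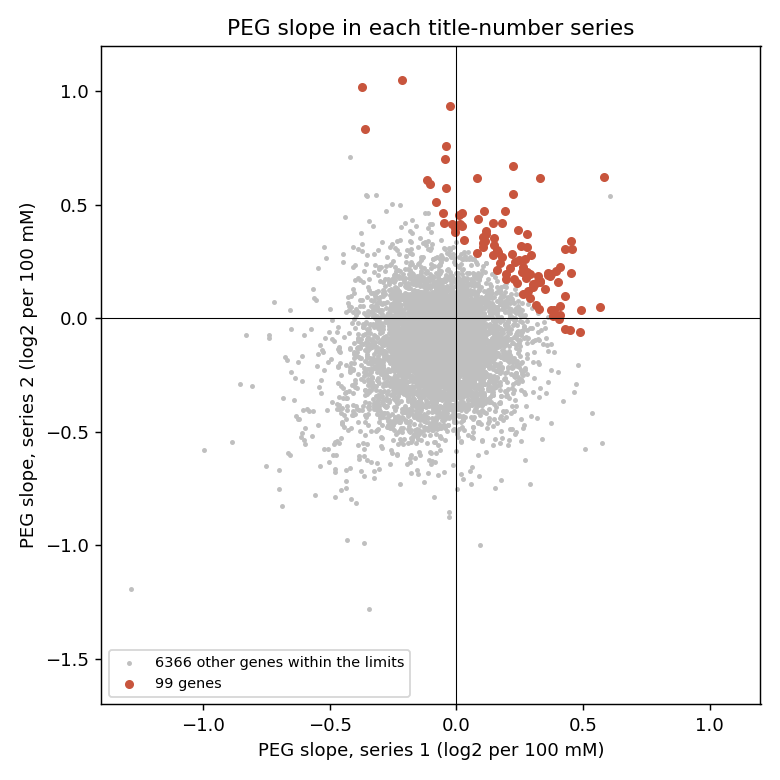
PEG slope in series 1 against that in series 2, in log2 units per 100 mM, with the 99 genes and the other genes that met the limits in different colours. Of the 99 genes, 80 lie in the quadrant where both slopes are positive, and the mean of the 2 axes is the value that chose them.

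The rule was also applied to the slopes of 1 series alone, and the PEG slope was taken in the other. This setting was added after the data had been seen. The floor on the mean and the choice of probe set still used all 32 arrays. The 100 genes chosen in series 1 from 5620 had a median PEG slope of 0.25 there and of 0.04 in series 2, with quartiles of -0.07 and 0.18. Of them, 60 were above 0 in series 2, against 30.0% of the 5620, whose median there was -0.09. The 100 chosen in series 2 from 5205 had a median of 0.34 there and of 0.08 in series 1, with quartiles of -0.02 and 0.25. Of these, 69 were above 0 in series 1, against 39.6% of the 5205, whose median there was -0.04.

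Both lists were thus less steep at the median in the series whose slopes were not used. Their medians there were above those of all genes meeting the limits, a set not matched to them for level or spread. That set also leans to falling slopes. Of the 6465 genes that met the limits on the averaged slopes, 20.7% had a PEG slope above 0, against 51.8% of named genes. Of named genes at any level, 49.8% had a PEG slope above 0 in series 2 and 53.5% in series 1. Their medians were -0.00075 and 0.016. Agreement between the series was therefore not settled by this comparison. The lists from the 2 series shared 1 gene, AT5G01070. A list of 100 was 1.78% of the genes meeting the limits in series 1 and 1.92% of those in series 2. The limit on the other solutes was met again in series 2 by 42 of the 100 genes chosen in series 1, and in series 1 by 25 of those chosen in series 2. Of all genes meeting the limits in the choosing series, 58.2% and 62.8% met them again. The genes chosen in series 2 had in series 1 a median slope of 0.20 over NaCl and of 0.13 over sorbitol, against -0.084 and -0.048 for all genes meeting the limits. Those chosen in series 1 had in series 2 a median of -0.044 over NaCl and of 0.024 over sorbitol, against -0.028 and -0.022. These values changed when a PEG 150 mM array was left out. Without that of series 2, the genes chosen in series 1 had a median of 0.0057 there, with 50 above 0, against -0.074 and 34.8% for all genes meeting the limits. Without that of series 1, those chosen in series 1 had a median of -0.038 in series 2, with 43 above 0, against -0.086 and 30.0%.

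**Figure D4:**
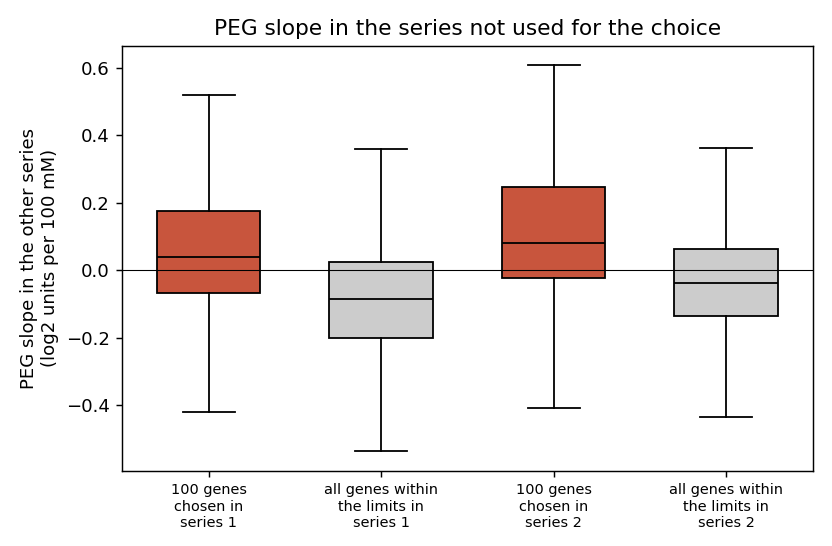
PEG slope, in log2 units per 100 mM, in the series whose slopes were not used for the choice, for the 100 genes chosen in series 1 or in series 2 and for all genes that met the limits in the same series. Boxes span the quartiles around the median, whiskers reach to 1.5 times the box height, and points beyond them are not drawn. The medians of the chosen genes are 0.04 and 0.08, against -0.09 and -0.04 for all genes that met the limits. Most PEG slopes of that wider set lie at or below 0.

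Other measures were contrasts separate from the mean slopes that chose the genes, though taken from the same arrays. Each was tested over all 28285 genes with limma and Benjamini-Hochberg adjustment at 0.05. The spread behind the tests may not be separate from the choice. Its median was 0.24 in the 99 genes against 0.16 in the genes that met the limits. The first measure was the level in series 2 against that in series 1 over all 16 pairs of arrays. It differed in 66 of the 99 genes, 49 higher and 17 lower in series 2, against a background of 62.8% of all genes (34.6% higher, 28.2% lower) and of 74.8% of the genes that met the limits. The share called in either direction, 66.7%, is near the background. The split by direction is not: 49 of the 99 were higher against 34.6% of all genes, and 17 lower against 28.2%. Each series was run once, so these p-values measure the scatter of the pairs and not the variation from series to series. The median difference was 0.20 log2 units, against 0.06 over all genes and -0.02 over the genes that met the limits. The difference exceeded 2-fold in 6 of the called genes.

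Of the genes higher in series 2, AT5G04885 had a mean of 4.39 in series 1 and 5.32 in series 2, a difference of 0.93 (SE 0.06, limma adjusted p = 7.18e-13). AT1G29160 differed by 0.97 (SE 0.08, limma adjusted p = 2.85e-11), from 4.97 to 5.94. GLR3.3 differed by 0.49 (SE 0.06, limma adjusted p = 2.58e-08), from 4.75 to 5.24. The largest differences ran the other way. CYP71B6 was at 6.22 in series 1 and 4.46 in series 2, a difference of -1.75 (SE 0.07, limma adjusted p = 3.18e-17). AT5G41280 differed by -1.58 (SE 0.08, limma adjusted p = 3.85e-15) and AT3G60470 by -1.55 (SE 0.09, limma adjusted p = 9.26e-15). In AT5G41280 the control stood at 3.95 in series 1 and 2.41 in series 2, and the PEG arrays at 4.39 to 4.48 and at 2.42 to 2.74.

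The second measure was the change with PEG dose of the difference between series 2 and series 1. It was fitted over all 16 pairs of arrays with 1 level difference shared by all groups and a dose slope for each solute, so its estimate is not the plain subtraction of the 2 series slopes given above. It was called in 0 of the 99 genes by limma, against a background of 0.0318%, or 9 of all genes, with 0.0106% steeper and 0.0212% less steep in series 2. At an unadjusted p under 0.05 it was present in 10 of the 99 (10.1%) against 9.44% of all genes. Of these, 8 were steeper in series 2 and 2 less steep, against 1169 and 1501 over all 28285 genes. The smallest p was that of AT4G34300, with an estimate of 0.79 (SE 0.17, limma adjusted p = 0.0992). AT4G12220 followed with 0.76 (SE 0.21, limma adjusted p = 0.204), and then AER with 0.57 (SE 0.16, limma adjusted p = 0.221). The estimate for AT5G38000 was 0.58 (SE 0.32, limma adjusted p = 0.603).

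The plain difference of the 2 slopes was also tested, over the control and PEG pairs alone. This test was added after the data had been seen and has 3 residual degrees of freedom. It was called in 0 of the 99 genes and in 0% of all genes by limma, and at an unadjusted p under 0.05 in 9 of the 99 (9.09%) against 6.08% of all. All 9 were steeper in series 2 and 0 were less steep, against 796 steeper and 925 less steep over all 28285 genes. AT5G38000 had the smallest p, with a plain difference of 1.27 (SE 0.26, limma adjusted p = 0.185). The plain difference was 0.80 in AER (SE 0.21, limma adjusted p = 0.514) and 0.96 in AT4G34300 (SE 0.26, limma adjusted p = 0.522). The median SE was 0.20 in the first fit and 0.27 in the second, close to the median PEG slope, so that a difference of the size of the slope itself was not detectable in most of these genes.

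The third measure was the curvature over the PEG doses, the mean of 75 and 150 mM minus that of 100 and 125 mM, which leaves out the control. It was called in 0 of the 99 genes by limma, against a background of 0% of all genes, and at an unadjusted p under 0.05 in 3 (3.03%) against 4.67% of all genes. These were AT5G39790 with -0.32, AT1G17230 with 0.35 and AT3G04650 with -0.29, each with a limma adjusted p of 0.998. Over the 99 genes it ran from -0.41 to 0.39 with a median of 0.008.

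The mean levels of the 99 genes, which the rule bounded only from below, ran from 3.0 to 6.59, with a median of 3.73 against 5.46 in the genes that met the limits. Of the 99, 66 (66.7%) had a mean under 4, against 16.0%, and 12 (12.1%) had one of 5 or more, against 61.4%. The residual standard deviation within groups, after removal of the series, had a median of 0.24 against 0.16. The floor of 3 applied to both sets. Whether level and spread had a part in the PEG slopes was not tested.

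**Figure D5:**
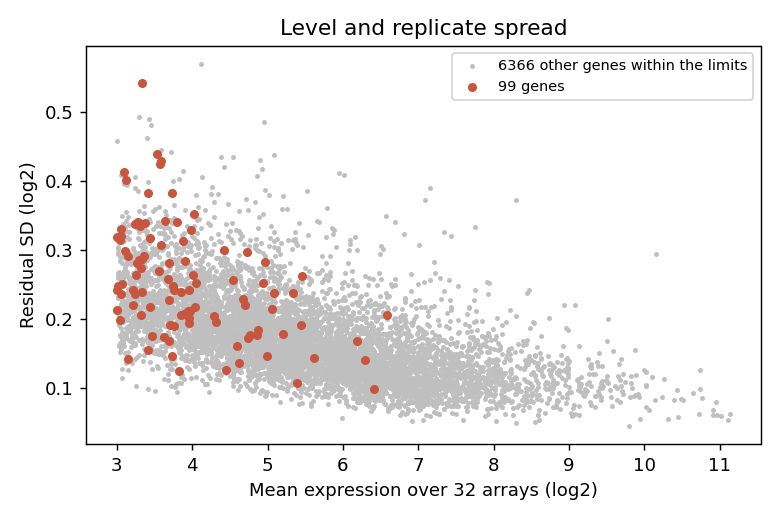
Mean log2 level against residual standard deviation in log2 units for the 99 genes and for the other genes that met the limits on level and on the other solutes. Most of the 99 lie at low level, 66 of them under 4, and their median standard deviation is 0.24 against 0.16.

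By the RefSeq table, 97 of the 99 genes matched an entry and all 97 were protein-coding, while PC1 and IDL3 were named by the array annotation alone. They lay on all 5 chromosomes, with 29, 18, 17, 18 and 15 genes on chromosomes 1 to 5. In 5 pairs the 2 genes had under 10 genes between them, the closest with 4, and none were neighbours. One of these pairs was AT2G42100 and AT2G42170, both of the actin family, with 7 genes between them. Cross-hybridisation between such relatives was not tested. No 2 of the genes shared an identical row of values.

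Other probe sets existed for 3 of the genes. For AT1G72270 the other set had a PEG slope of 0.23, but its slopes over NaCl (0.13) and sorbitol (0.21) were above the limit. For AT2G21185 the PEG slope of the other set was 0.02, and for AT1G17230 it was -0.24.

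How far the genes varied together was read outside the dose slopes. Over the 16 differences between paired arrays, the median pairwise correlation between the 99 genes was 0.03, and that among the genes that met the limits was 0.02. After quantile normalisation they were 0.044 and 0.0024. This is a description over arrays that share a series and a scaling.

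Genes of 3 response lists were read over PEG doses for comparison. None of the listed genes was among the 99. Of 25 low-oxygen genes 9 were named here, with a median PEG slope of -0.05. Of 23 abscisic acid and dehydration genes 5 were named, with a median of -0.13, and of 18 touch and wound genes 4 were named, with a median of 0.19. The median over all genes was 0. In each list 0 genes passed limma's test of the PEG slope, against a background of 0.53% of all genes higher and 0.481% lower, 1.01% in all. At an unadjusted p under 0.05 there were 0, 3 and 2, together 3 higher and 2 lower among 18. Over all 28285 genes, 2068 were higher and 2033 lower at that threshold.

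STZ, a zinc finger repressor induced by many stresses, had a PEG slope of 0.25 (SE 0.08, limma adjusted p = 0.114). Under quantile normalisation the STZ slope was 0.34 and passed the test, whereas without the replicate block its limma adjusted p was 0.99994. It was 0.40 without the series 1 control array, so the size of the STZ slope depended on that array. CML37, a calmodulin-like calcium sensor, had 0.31 (SE 0.13, limma adjusted p = 0.290) and CML38, of the same family, had -0.23. The dehydrin COR47 had -0.17 (SE 0.06, limma adjusted p = 0.166), and the cold- and dehydration-induced genes KIN1 and KIN2 had 0.32 and -0.42, with limma adjusted p of 0.303 and 0.253. The mean levels of KIN1 and KIN2, 1.78 and 2.18, were below the floor of 3 and near those of the pollen genes. Cross-hybridisation between KIN1 and KIN2, which are close relatives, was not tested. Of the low-oxygen list, the values of smallest p were -0.30 for AT1G19530, -0.21 for AT3G27220 and -0.11 for AT4G33560.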

How the data were processed

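Root RNA was hybridised to Affymetrix whole-transcript arrays. The authors deposited 1 normalised value for each of 28477 probe sets on 32 arrays, read here as log2 from their range of 0.2 to 12.45. Per the submitters' processing notes, the tools were GCRMA, Transcriptome Analysis Console and Affymetrix Expression Console. Log base and scaling were not given in the sources used here, and another base would change every fold. The number of arrays limits the precision, and 0 columns were set aside. PEG doses are as labelled, since PEG 8000 at such molar doses would be very concentrated.

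Probe sets listing 1 gene (16746) took its name, those listing several (758) or none (10973) took none, and 16601 matched RefSeq (TAIR10.1, names and gene order only). The probe set of highest mean was kept, which set aside 192.

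limma 3.58.1 in R 4.3.3 was run on the log2 values with group means, the series as a block and a mean-variance trend. For all 120 pairs of groups, arrays of the same series deviated together (correlations of 0.50 to 0.77, median 0.67), so series from the title numbers pair the arrays. The script was tested on simulated data.

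The members, lists and tests were chosen with earlier results of these data known. The genes named were the 12 steepest, the 10 highest by the lower of their 2 series slopes, the 8 of highest level, those beside the threshold, the 3 of smallest p in each direction among those called, the 3 of smallest p per list, pairs by family or position, and the 3 whose slope fell most without the PEG 150 mM array of series 2. GSTF3, ICL, SHI, UPP, RRP41L, AT4G12220, AT5G39790, AT3G04650, the other family examples, the genes beside the limit of 0.1 and those on opposite sides of the control in the 2 series were chosen after their values were seen. Roles are background knowledge. Alternatives were other scalings, floors, limits, fits without the block or trend, and leaving out each control or PEG array.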

Additional observations from a re-analysis of the deposited data

Results flagged for a closer look

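3 of the 99 genes had all 4 PEG arrays on 1 side of the control array in series 1 and all 4 on the other side in series 2. This difference between series averages was not tested, and the difference between their PEG slopes was not called by limma in either fit. The count uses values that the rule also used, and each series had 1 control array. The share over all genes was not taken, so nothing is read from the count.

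In AT2G16019 the PEG average lay 0.66 log2 units below the control in series 1 (-0.66) and 1.57 above it in series 2, which makes 2.23 between them. It stood at 3.68 in the control and at 2.68, 3.26, 3.16 and 2.98 in series 1, and at 2.69 and then 4.32, 4.49, 3.89 and 4.35 in series 2. The other solutes stood on the same sides: in series 1 all NaCl, sorbitol and EG arrays, at 2.30 to 3.57, were below the control, and in series 2 all were above it except 1 NaCl array at 2.64. The plain difference of the 2 PEG slopes was 1.39 (SE 0.41, limma adjusted p = 0.607), and the estimate of the fit with a shared level difference was 0.72 (SE 0.37, limma adjusted p = 0.564). Its residual standard deviation, 0.54, was the highest of the 99.

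In AT5G06043 the PEG averages were -0.16 and 0.53 from the control, a difference of 0.69. It stood at 5.04 and then 5.0, 4.55, 5.02 and 4.95, and at 4.91 and then 5.18, 5.39, 5.53 and 5.67. In series 2 no array of another solute was below the control, and in series 1 NaCl ran from 4.68 to 5.09, sorbitol from 4.97 to 5.08 and EG from 4.53 to 4.91. In AT1G74370 they were 0.48 and -0.16, a difference of -0.64, from 2.53 and then 2.65, 3.08, 3.09 and 3.22, and 3.14 and then 2.90, 2.97, 3.04 and 3.03. In series 1 the other solutes of AT1G74370 ran from 2.45 to 3.3, and in series 2 from 2.83 to 3.32.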

How the results depend on the processing

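Which genes the rule returned depended on its settings. Of the 99, the top 100 still held 90 with arrays centred on their medians and 74 after quantile normalisation. It held 29 with slopes over the treated doses alone, 24 in series 1 alone, 26 in series 2 alone, 35 and 33 with a floor of 2 or 4, 22 with no floor, and 15 and 33 with the limit at 0 or 0.2. The stricter floor and limit shut out members by definition. Since 66 of the 99 had a mean under 4, no more than 33 could pass a floor of 4. A limit of 0 removes every member with a slope above 0 over another solute. Leaving out 1 array gave 26 to 96, with 37 and 26 without the control of series 1 or 2, and 62 and 67 without the PEG 150 mM array of series 1 or 2. The median PEG slope was 0.43 over the treated doses, 0.28 in series 2, and 0.23 to 0.33 leaving out 1 array. Without a series' control array, its slope rests on treated doses alone. For the 33 members that the naming rule gave, 11 slopes turned negative: in series 1 alone AT4G34300 (-0.026), AT5G38000 (-0.21), AER (-0.04) and GH9B10 (-0.0057); over the treated doses AT1G70420 (-0.056) and AT3G55650 (-0.28); without the series 1 control AT3G55650 (-0.26) and ZYP1b (-0.0065); without the series 2 control AT1G29160 (-0.089) and AT5G49850 (-0.26); and without PEG 150 mM of series 2 GH9B10 (-0.0014). Leaving out 1 array, the highest slopes of these genes were 0.54 for AT1G29160, 0.51 for AT5G49850, 0.80 for ZYP1b and 0.42 for GH9B10. The cause was not tested.

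Genes chosen in series 1 had a median slope in series 2 of 0.0057 without the PEG 150 mM array of series 2 and -0.038 without that of series 1. For genes chosen in series 2 the median in series 1 was 0.083 and 0.15. The level difference between series was called in 45 to 51 genes higher and 16 to 17 lower when 1 array was left out, and in 58 and 12 after centring. Listed genes called higher numbered 1 (STZ) after quantile normalisation, and 0 to 1 leaving out 1 array. The plain slope difference was called in 0 genes. Without the replicate block, the curvature was called in 0 members and the PEG slope in 0 listed genes. Over all genes, 4 higher and 0 lower PEG slopes then passed, against 150 and 136 with it.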
